A study of Saccharomyces cerevisiae with 7 samples.

Results

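The comparison described here is that of yeast grown for 3 days as a lawn on the surface of agar plates with yeast in log phase, the stage of rapid division in liquid culture. It comprised 3 of the 7 libraries analysed: the single lawn library and both log-phase libraries. All cells were of strain BY4741, a haploid laboratory strain of Saccharomyces cerevisiae, of mating type a and without a few genes of amino acid and uracil synthesis, and all were grown at 30 °C in synthetic complete (SC) medium. For the lawn, cells diluted to an optical density (OD600) of 0.2 from an overnight culture were spread on 10-cm plates and grown for 3 days. The log-phase cultures began at the same density and were collected in liquid at an OD600 of 0.5. A pair of liquid cultures taken after saturation served as a second reference for the lawn. The study, whose title concerns excised linear introns and growth, also included rapamycin treatments, which were used here only to share the estimate of spread. RNA was depleted of ribosomal RNA, fragmented, size-selected to short fragments and sequenced, and reads were counted by the authors for each gene and, separately, for each intron.

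Cells on a plate use up the glucose beneath them as they grow dense, and then live on the ethanol and acetate that fermentation left behind. In budding yeast this change relieves glucose repression: genes for respiration, for building sugar from small carbon compounds and for the oxidation of fatty acids are switched on, while ribosome production, the large cost of rapid growth, is cut back. Introns are few in this organism and sit mostly in ribosomal protein genes. An excised intron is normally released as a lariat, opened and destroyed within minutes, but some introns are known to persist as linear RNA in dense or starved cultures.

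The lawn is a single library, so no value of the lawn has a replicate error of its own, and the tests draw their spread from the 2 paired groups, log phase and saturated. The labels do not say that the paired libraries came from separate cultures, so that spread may be technical. Time, density, agar and the solid medium changed together and cannot be told apart, and in bulk RNA fewer cells of a kind and less RNA per cell cannot be told apart either. Within a gene, levels are given in CPM, the read count scaled to library size with edgeR's trimmed mean of M-values. Where genes are set side by side they are given in TPM as deposited, which is also scaled to length.

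The lawn library held 1312256 gene reads, against 6714865 and 1875036 in the log-phase libraries, so counting error is largest in the lawn. Its RNA was spread over more genes: the 10 genes with the most reads took 6.20% of gene reads in the lawn, against 13.0% and 14.4% in log phase, and 21.6% and 26.1% in the saturated cultures. Introns took 2.60% of all counted reads in the lawn, against 1.28% and 1.33% in log phase. Of the genes that the strain lacks, LEU2 had 0 reads in the lawn and log-phase libraries, and MET17 and URA3 had at most 1 read in any of these. HIS3, of which the strain is known to keep a part, had 143 CPM in the lawn, against 77.6 and 69.1 CPM in log phase. In the saturated cultures the 4 genes summed to 564 and 315 CPM. Of 3 tested, 1 was lower in the lawn than at saturation, and 0 were with plain library totals or in the fit of these groups alone. The median log2 fold change over the 3 was -4.7. The source of the reads of these genes was not tested. The 7 marker genes of a cells summed to 361 CPM in the lawn, against 1434 and 2136 CPM in log phase. The 4 marker genes of α cells summed to 96.9 CPM in the lawn, against 34.4 and 45.0 CPM in log phase. Of these MF(ALPHA)1, the gene of α-factor, had 4 reads in the lawn and 0 in both log-phase libraries, and 2 of 3 tested rose, but 0 did without log-phase replicate 1. The 10 sporulation markers of diploid cells summed to 39.0 CPM in the lawn, against 28.9 and 26.9 CPM in log phase. Among 8 tested of these diploid-cell markers 1 rose, beside 20.7% over all genes. The part of such cells in the results was not tested. The log-phase libraries differed from each other in HSP12, which encodes a small membrane-protecting protein, at 548 CPM in replicate 2 and 81.0 CPM in replicate 1.

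The lawn differed from log phase in a large part of the genome. Of 5827 genes tested, 1204 rose in the lawn (20.7%) and 1218 fell (20.9%) at an adjusted p under 0.05, 41.6% in all, in edgeR's quasi-likelihood test with Benjamini-Hochberg adjustment. The median log2 fold change over all tested genes was 0.04. Plain library totals in place of the trimmed-mean scaling moved that median to 0.47 and gave 1772 rises and 870 falls, so that 67.1% of the calls were rises, against 49.7% in the fit as described, and changes smaller than that shift have no firm sign. Leaving out log-phase replicate 1 gave 731 rises, and leaving out saturated replicate 1 or 2 gave 1879 and 1878 falls.

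The 12 largest rises included genes of desiccation tolerance, of organic acid and glycerol use and of gluconeogenesis, beside genes of other or little-known roles. SIP18, a hydrophilin that protects cells during drying (chromosome XIII, 611016-611255, build R64), had 1911 CPM in the lawn, against 2.52 and 1.65 CPM in log phase (log2 fold change 9.71 ± 0.67 SE, edgeR adjusted p = 4.67e-05). By TPM it was the highest protein-coding gene of the lawn at 10710.0 TPM, against 9.65 and 6.41 TPM in log phase. An unnamed gene, YMR175W-A, overlaps it, and reads shared between them cannot be told apart here. SFC1, the mitochondrial carrier that exchanges succinate for fumarate, had 398 CPM in the lawn, against 0.631 and 1.65 CPM in log phase (log2 fold change 8.77 ± 0.48 SE, edgeR adjusted p = 3.37e-05). SPG4, named for survival in stationary phase, had 785 CPM in the lawn, against 1.74 and 2.19 CPM in log phase (log2 fold change 8.70 ± 0.58 SE, edgeR adjusted p = 4.63e-05). MLS1, malate synthase of the glyoxylate cycle (chromosome XIV, 406358-408022), had 1619 CPM in the lawn, against 2.52 and 9.32 CPM in log phase (log2 fold change 8.36 ± 0.71 SE, edgeR adjusted p = 0.000105). In all of these both log-phase libraries held few reads. That the lawn lay above both was part of the rule by which these genes were named. JEN1, the permease for lactate and pyruvate, had 1350.2 CPM in the lawn, against 3.47 and 5.48 CPM in log phase (log2 fold change 8.34 ± 0.55 SE, edgeR adjusted p = 4.63e-05). PDC6, the minor pyruvate decarboxylase, had 1570.1 CPM in the lawn, against 2.68 and 8.22 CPM in log phase (log2 fold change 8.40 ± 0.60 SE, edgeR adjusted p = 4.96e-05). FBP1, the phosphatase that commits carbon to sugar synthesis, had 177 CPM in the lawn, against 0 and 2.19 CPM in log phase (log2 fold change 8.31 ± 0.84 SE, edgeR adjusted p = 0.000205). SPS100, a protein of spore wall maturation, was at 455 CPM in the lawn, against 1.58 and 0.548 CPM in log phase. ECM13, of little-known function, was at 424 CPM in the lawn, against 1.10 CPM in each log-phase library.

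3 of the 12 largest rises rested on 1 or 2 log-phase reads and are given as ratios with counting error only. DPA10 had 278 reads in the lawn and 1 and 0 reads in log phase, a ratio of 1341 after scaling (95% exact interval 239 to 53158). ISF1 had 249 reads in the lawn and 2 and 0 reads in log phase, a ratio of 601 (interval 165 to 4987). STL1, a glycerol transporter that yeast uses when glucose is gone, had 165 reads in the lawn and 1 read in each log-phase library, a ratio of 398 (interval 108 to 3314). The sizes of these rises are thus loosely known, and each interval lies above 1.

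The 12 largest falls included genes of the cell wall, of glucose uptake and of division. UTR2, which links chitin to glucan in the wall (chromosome V, 78053-79456), had 9.46 CPM in the lawn, against 637 and 574 CPM in log phase (log2 fold change -6.00 ± 0.56 SE, edgeR adjusted p = 0.000157). CIS3, a wall mannoprotein, had 12.4 CPM in the lawn, against 606 and 636 CPM in log phase (log2 fold change -5.64 ± 0.69 SE, edgeR adjusted p = 0.000477). HXT1, the low-affinity glucose transporter that high glucose induces, had 10.6 CPM in the lawn, against 364 and 453 CPM in log phase (log2 fold change -5.26 ± 0.55 SE, edgeR adjusted p = 0.000251). That the lawn lay below both log-phase libraries was part of the rule by which these genes were named. ELO3, an elongase of very long fatty acids, had 6.50 CPM in the lawn, against 314 and 282 CPM in log phase (log2 fold change -5.51 ± 0.52 SE, edgeR adjusted p = 0.000171). SAH1, which breaks down the by-product of methylation reactions, had 70.9 CPM in the lawn, against 2619.8 and 2569.5 CPM in log phase (log2 fold change -5.19 ± 0.53 SE, edgeR adjusted p = 0.000222). The wall genes CWP1 and GAS3 had log2 fold changes of -5.21 and -5.08, the acid phosphatase gene PHO3 -5.20, the membrane protein gene INA1 -5.93 and the glucose transporter gene HXT2 -5.00. GIC1, which acts in bud emergence, had 0 reads in the lawn and 164 and 45 reads in log phase, at least 14.3-fold lower with the lawn set to a floor of 3 reads. CLB6, an S-phase cyclin, had 1 read in the lawn and 149 and 39 reads in log phase, a ratio of log phase over lawn of 39.0 (interval 6.91 to 1547).

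**Figure D1:**
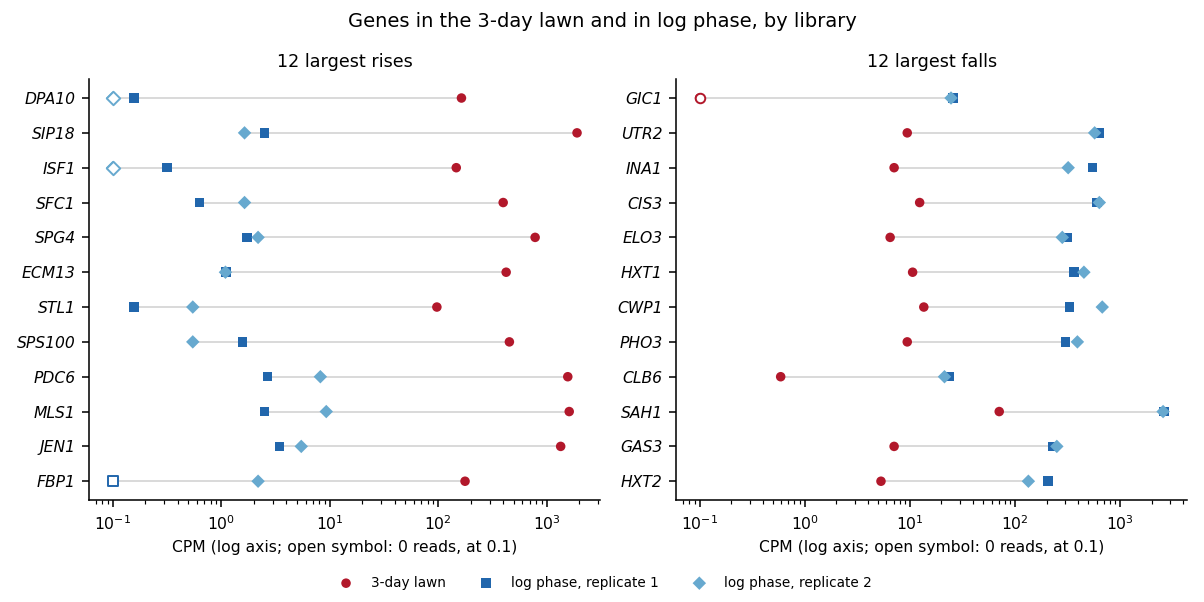
Level of the 12 genes with the largest rises (left) and the 12 with the largest falls (right), in CPM on a log axis, with red circles for the lawn and blue squares and diamonds for log-phase replicates 1 and 2; an open symbol marks 0 reads, drawn at 0.1. The lawn lies outside both log-phase libraries for every gene shown, since that was part of the rule by which they were named.

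Genes that let yeast live without sugar rose together. Of 17 tested genes of gluconeogenesis and the glyoxylate cycle, which turns acetate into building blocks, 14 rose and 0 fell, with a median log2 fold change of 5.28 against 0.04 over all genes. ICL1, isocitrate lyase and the entry enzyme of the cycle, had 2006 CPM in the lawn, against 19.6 and 27.4 CPM in log phase (log2 fold change 6.44 ± 0.41 SE, edgeR adjusted p = 4.63e-05). PCK1, which makes phosphoenolpyruvate from oxaloacetate, had 678 CPM in the lawn, against 4.73 and 9.32 CPM in log phase (log2 fold change 6.73 ± 0.46 SE, edgeR adjusted p = 4.63e-05). REG2, a regulatory subunit of the phosphatase that acts in glucose repression, had 170.2 CPM in the lawn, against 0.631 and 2.74 CPM in log phase (log2 fold change 7.14 ± 0.61 SE, edgeR adjusted p = 0.000108). The lawn was the highest of the 3 libraries for all of these, which were named with their values known. CIT2, the peroxisomal citrate synthase, was already present in log phase and had 3974 CPM in the lawn, against 368 and 473 CPM in log phase (log2 fold change 3.24 ± 0.41 SE, edgeR adjusted p = 0.000561). ADR1, an activator of this set, rose by the least, at 2.02 on the log2 scale.

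Respiration followed. Of 41 tested nuclear genes of the respiratory chain and ATP synthase, 39 rose and 0 fell (median 2.19), and their summed share of gene TPM was 4.42% in the lawn, against 0.645% and 0.688% in log phase. NDE2, an external NADH dehydrogenase, had 469 CPM in the lawn, against 3.79 and 6.03 CPM in log phase (log2 fold change 6.68 ± 0.47 SE, edgeR adjusted p = 4.96e-05). COX7, a subunit of cytochrome c oxidase, had 210.4 CPM in the lawn, against 19.4 and 15.9 CPM in log phase (log2 fold change 3.55 ± 0.33 SE, edgeR adjusted p = 0.000144). QCR10, of the cytochrome bc complex, had 277 CPM in the lawn, against 25.1 and 29.6 CPM in log phase (log2 fold change 3.35 ± 0.39 SE, edgeR adjusted p = 0.000377), while ATP1, the α subunit of the ATP synthase, rose by only 1.53 on the log2 scale. Most members thus rose by a few fold, from a log-phase level already well above 0, and NDE2 stood apart. Of 18 tested tricarboxylic acid cycle genes, 11 rose and 0 fell (median 1.82; 1 fell without either saturated library). Succinate dehydrogenase, which belongs to both the cycle and the chain, was among them: SDH2 had 1295 CPM in the lawn, against 48.0 and 59.8 CPM in log phase (log2 fold change 4.59 ± 0.35 SE, edgeR adjusted p = 6.38e-05), SDH1 had a log2 fold change of 4.06 and SDH4 of 3.76. CIT3, the minor mitochondrial citrate synthase, had 432 CPM in the lawn, against 3.95 and 6.03 CPM in log phase (log2 fold change 6.53 ± 0.44 SE, edgeR adjusted p = 4.63e-05). In contrast, of 70 tested genes listed for the mitochondrial ribosome 1 rose and 0 fell, with a median of -0.13 that became 0.30 with plain library totals. That riser, MRP8, was matched by its name, and whether it belongs to that ribosome was not checked here. MRP8 did not pass without log-phase replicate 1. There were 10 falls in the fits without either saturated library, 8 rises with plain library totals, and 4 rises and 7 falls in the fit of the groups compared alone. Genes of the mitochondrial genome itself were not analysed here.

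Fatty acid oxidation and the carnitine shuttle rose with respiration. Of 21 tested genes 16 rose and 1 fell (median 3.05). YAT2, which loads acetyl groups onto carnitine for transport into mitochondria, had 3555 CPM in the lawn, against 41.7 and 35.6 CPM in log phase (log2 fold change 6.52 ± 0.50 SE, edgeR adjusted p = 6.12e-05). YAT1, a second enzyme of that kind, had 2332 CPM in the lawn, against 12.8 and 30.7 CPM in log phase (log2 fold change 6.81 ± 0.74 SE, edgeR adjusted p = 0.000306). CRC1, the carnitine carrier of the mitochondrial membrane, had 463 CPM in the lawn, against 3.31 and 2.74 CPM in log phase (log2 fold change 7.19 ± 0.36 SE, edgeR adjusted p = 3.37e-05). POT1, the thiolase of peroxisomal oxidation, had 133 reads in the lawn, against 1 and 3 reads in log phase (log2 fold change 7.16 ± 0.87 SE, edgeR adjusted p = 0.000477). Per length, the carnitine genes stood above the oxidation enzymes in the lawn: YAT2, YAT1 and CRC1 were at 1725, 1519.7 and 633 TPM, and POT1, POX1 and FOX2 at 84.3, 38.9 and 120.3 TPM. The gene that fell was FAA4 (-2.53), which activates imported fatty acids during growth.

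**Figure D2:**
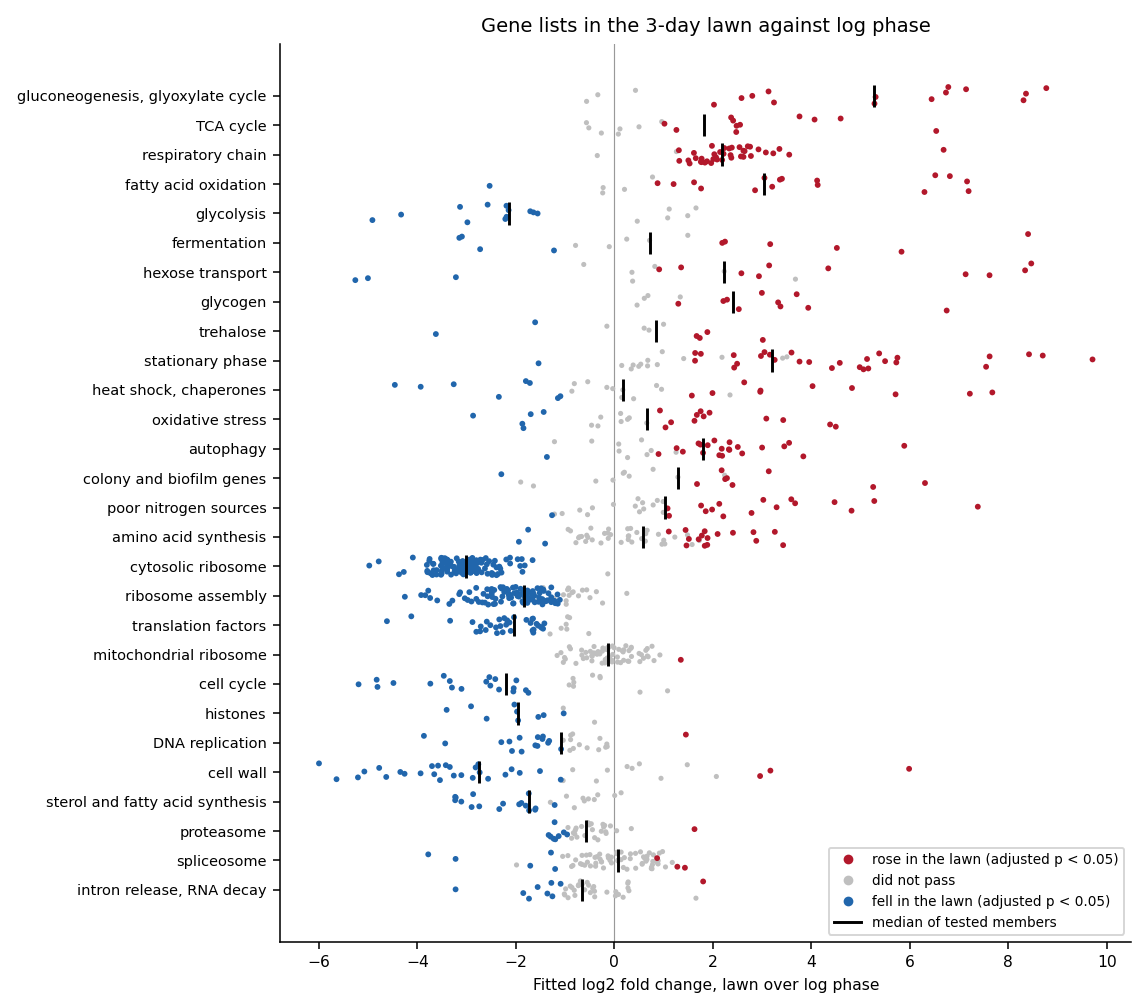
Fitted log2 fold change, lawn over log phase, of every tested member of 28 gene lists; each point is a gene, red where it rose, blue where it fell and grey where it did not pass, and black bars are medians. The gluconeogenesis, tricarboxylic acid cycle, respiratory chain and fatty acid oxidation lists at the top lie mostly to the right. The glycolysis, cytosolic ribosome, translation, cell-cycle and cell-wall lists lie mostly to the left, and the spliceosome and mitochondrial ribosome lists around 0.

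Glycolysis moved the other way. Of 17 tested genes 12 fell and 0 rose (median -2.15), and the list's share of gene TPM was 2.61% in the lawn, against 7.06% and 8.48% in log phase. ENO2, an enolase, had 416 CPM in the lawn, against 12010.0 and 13012 CPM in log phase (log2 fold change -4.91 ± 0.70 SE, edgeR adjusted p = 0.000887). HXK2, the main hexokinase of growth on glucose, had 85.7 CPM in the lawn, against 1891 and 1556 CPM in log phase (log2 fold change -4.33 ± 0.52 SE, edgeR adjusted p = 0.000450). CDC19, the major pyruvate kinase, had 1892 CPM in the lawn, against 14760.0 and 15161 CPM in log phase (log2 fold change -2.98 ± 0.63 SE, edgeR adjusted p = 0.00536). The falls were thus several fold, and the lawn still held substantial glycolytic RNA, as TDH3 at 4510 TPM and FBA1 at 4154 TPM show. 6 of the 17 fell without log-phase replicate 1 and 5 without replicate 2, and 4 rose without log-phase replicate 2 or without either saturated library. TDH3 and FBA1 did not pass without either log-phase library, nor did PGK1, and GPM1 did not pass without replicate 2. TDH2 and TDH3 are close copies of each other, as are the enolase genes ENO1 and ENO2, and reads that match both could be split between them.

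Of 15 tested genes of fermentation and of ethanol and acetate use, 6 rose and 4 fell, beside 20.7% and 20.9% over all genes. Fewer fell without log-phase replicate 1. ADH1, the alcohol dehydrogenase that makes ethanol, had 1394 CPM in the lawn, against 7326 and 11107 CPM in log phase (log2 fold change -2.73 ± 0.65 SE, edgeR adjusted p = 0.00930), whereas ADH2, which oxidises ethanol, had 57.3 CPM in the lawn, against 1.10 and 5.48 CPM in log phase (log2 fold change 4.52 ± 1.01 SE, edgeR adjusted p = 0.00709). The major pyruvate decarboxylase gene PDC1 had 3318 CPM in the lawn, against 27590.0 and 29114 CPM in log phase (log2 fold change -3.10 ± 0.81 SE, edgeR adjusted p = 0.0146), and it did not pass without log-phase replicate 1. ADH5, another alcohol dehydrogenase, had 302 CPM in the lawn, against 39.5 and 26.9 CPM in log phase (log2 fold change 3.16 ± 0.41 SE, edgeR adjusted p = 0.000601). Of the acetate-activating enzymes, ACS1, used when glucose is absent, had 1103 CPM in the lawn, against 11.5 and 29.6 CPM in log phase (log2 fold change 5.83 ± 0.74 SE, edgeR adjusted p = 0.000548), and ACS2, used in its presence, fell by 1.23 on the log2 scale. The isozymes of a step thus moved in both directions, with ADH5 and PDC6, which was described above, rising beside the falls of ADH1 and PDC1.

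Genes of sugar and related transport moved in both directions. Of 19 tested transporters, sensors and regulators, out of 25 listed, 10 rose and 3 fell, beside 20.7% and 20.9% over all genes. The 3 that fell were HXT1, HXT2 and HXT3, a share not above that over all genes. HXT5, a transporter of slow-growing cells, had 3397 CPM in the lawn, against 9.78 and 26.9 CPM in log phase (log2 fold change 7.62 ± 0.80 SE, edgeR adjusted p = 0.000256). HXT6, a high-affinity transporter, had 265 CPM in the lawn, against 1.74 and 2.19 CPM in log phase (log2 fold change 7.13 ± 0.61 SE, edgeR adjusted p = 0.000108); its near-identical neighbour HXT7 had 94.6 CPM in the lawn, against 6.15 and 29.6 CPM in log phase, and reads shared between the pair make both values uncertain. HXT3, of low affinity, had 53.8 CPM in the lawn, against 534 and 466 CPM in log phase (log2 fold change -3.22 ± 0.58 SE, edgeR adjusted p = 0.00255). HXT5 thus became the most abundant hexose transporter RNA of the lawn at 2569 TPM. HXT4 and HXT3, given as examples and not as the next in rank, were at 129 and 42.5 TPM.

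Storage and stress genes rose in part. Of 14 tested glycogen genes 10 rose and 0 fell (median 2.41), led by GAC1, a targeting subunit of the phosphatase that activates glycogen synthase, with 556 CPM in the lawn, against 3.79 and 7.68 CPM in log phase (log2 fold change 6.75 ± 0.47 SE, edgeR adjusted p = 4.67e-05). GLC3, the branching enzyme, had 518 CPM in the lawn, against 33.1 and 69.1 CPM in log phase (log2 fold change 3.37 ± 0.44 SE, edgeR adjusted p = 0.000594). Of 10 tested trehalose genes 4 rose and 2 fell, beside 20.7% and 20.9% over all genes. The risers were the 3 trehalases ATH1 (3.01), NTH1 (1.73) and NTH2 (1.67), which break the sugar down, and PGM2. The synthase genes TPS1 and TPS2 did not pass, with log2 values of 0.70 and 0.61 (edgeR adjusted p = 0.193 and 0.273). Only 1 of the 4 rises passed without log-phase replicate 1, and 1 of the 2 falls without replicate 2.

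Of 42 tested hydrophilins and other genes named for stationary phase or desiccation, 28 rose and 1 fell (median 3.21; 0 fell without log-phase replicate 1). Their share of gene TPM was 5.08% in the lawn, against 0.220% and 0.498% in log phase. GRE1, a hydrophilin related to SIP18, had 1678 CPM in the lawn, against 4.73 and 15.4 CPM in log phase (log2 fold change 7.55 ± 0.80 SE, edgeR adjusted p = 0.000258). SPG1, another gene named for stationary phase, had 171 CPM in the lawn, against 0.947 and 0.548 CPM in log phase (log2 fold change 7.62 ± 0.82 SE, edgeR adjusted p = 0.000297). DDR2, a small protein induced by many stresses, had 634 CPM in the lawn, against 11.2 and 29.1 CPM in log phase (log2 fold change 5.06 ± 0.79 SE, edgeR adjusted p = 0.00130). XBP1, MSN4, GIS1 and RIM15, which encode regulators of quiescence, were also among the risers, with log2 fold changes of 3.05, 2.49, 2.43 and 1.64.

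The chaperones did not move as a block: of 29 tested, 10 rose and 8 fell, and without log-phase replicate 1 these became 6 and 4. HSP26, a small heat-shock protein that binds unfolding proteins, had 3672 CPM in the lawn, against 41.3 and 101 CPM in log phase (log2 fold change 5.71 ± 0.70 SE, edgeR adjusted p = 0.000477). HSP30, a protein of the plasma membrane, had 2344 CPM in the lawn, against 16.9 and 14.3 CPM in log phase (log2 fold change 7.22 ± 0.59 SE, edgeR adjusted p = 8.43e-05). SSB1, a chaperone that sits on the ribosome, had 115 CPM in the lawn, against 2897 and 2139 CPM in log phase (log2 fold change -4.46 ± 0.54 SE, edgeR adjusted p = 0.000459). SSB2, its near copy, SSA2 and HSC82, the constitutive forms of their families, and YDJ1, SSE1, CPR6 and HSP10 made up the rest of the falls. HSP12 had 1590.2 CPM in the lawn, above both log-phase libraries, but its log2 fold change of 2.35 did not pass (edgeR adjusted p = 0.0534). Beside rises of 20.7% and falls of 20.9% over all genes, 12 of 25 tested genes against oxidative stress rose and 5 fell. Without log-phase replicate 1, these counts were 6 and 2, and without replicate 2 there were 3 falls. CTT1, the cytosolic catalase, had 1241 CPM in the lawn, against 24.9 and 88.3 CPM in log phase (log2 fold change 4.50 ± 0.65 SE, edgeR adjusted p = 0.000930), and SOD2, the mitochondrial superoxide dismutase, had 669.8 CPM in the lawn, against 167 and 215 CPM in log phase (log2 fold change 1.81 ± 0.34 SE, edgeR adjusted p = 0.00292). The peroxiredoxins TSA1 and AHP1, which are abundant during growth, fell by 1.43 and 1.85 on the log2 scale.

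The growth machinery was low throughout the lawn. Of 137 tested genes of the cytosolic ribosome, 136 fell and 0 rose (median -3.01), and their summed share of gene TPM was 5.98% in the lawn, against 34.9% and 30.4% in log phase. RPL9A had the largest fitted fall, with 50.8 CPM in the lawn, against 1705 and 1495 CPM in log phase (log2 fold change -4.98 ± 0.57 SE, edgeR adjusted p = 0.000359). RPS31, which carries ubiquitin fused to a ribosomal protein, had 299.7 CPM in the lawn, against 4115 and 3954 CPM in log phase (log2 fold change -3.75 ± 0.68 SE, edgeR adjusted p = 0.00259). RPS12, a single-copy gene, had 226 CPM in the lawn, against 3109 and 2651 CPM in log phase (log2 fold change -3.67 ± 0.48 SE, edgeR adjusted p = 0.000601). The lawn lay below both log-phase libraries for each of these, which were named for a large change or a high level. Of the 137, 1 did not pass. Many ribosomal protein genes are near-identical pairs, and the split of reads within a pair is uncertain.

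Ribosome assembly and translation were lowered with it. Of 116 tested assembly factors 97 fell and 0 rose (median -1.84). NOP1, the methylase of box C/D particles, had 26.6 CPM in the lawn, against 592 and 422 CPM in log phase (log2 fold change -4.25 ± 0.55 SE, edgeR adjusted p = 0.000591), and NOP58 and NOP56, its partners, fell by 3.92 and 3.84 on the log2 scale. Of 20 tested subunits of RNA polymerases I and III 12 fell and 0 rose, with 19 falls without either saturated library. RPA43, of polymerase I, had 9.46 CPM in the lawn, against 136 and 104 CPM in log phase (log2 fold change -3.66 ± 0.47 SE, edgeR adjusted p = 0.000589). Of 41 translation factors 34 fell and 0 rose (median -2.04). YEF3, the fungal elongation factor, had 803 CPM in the lawn, against 15756 and 12227 CPM in log phase (log2 fold change -4.12 ± 0.61 SE, edgeR adjusted p = 0.00103). Thus, apart from genes that did not pass, the direction was shared across ribosomal proteins, their assembly and their use.

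Division genes fell as well. Of 28 tested cell-cycle genes 19 fell and 0 rose (median -2.20; 1 rose without either saturated library). CLB2, the main mitotic cyclin, had 4.14 CPM in the lawn, against 117 and 116 CPM in log phase (log2 fold change -4.81 ± 0.47 SE, edgeR adjusted p = 0.000182). CLN2, a G1 cyclin, had 6.50 CPM in the lawn, against 159 and 133 CPM in log phase (log2 fold change -4.48 ± 0.53 SE, edgeR adjusted p = 0.000403), and CLN3, the upstream G1 cyclin, had 47.9 CPM in the lawn, against 95.0 and 73.5 CPM in log phase and did not pass (edgeR adjusted p = 0.217). SIC1, the inhibitor that holds cells in G1, had 54.4 CPM in the lawn, against 61.5 and 71.8 CPM in log phase (edgeR adjusted p = 0.513). The 19 falls included the cyclin genes CLN1, CLB1 and CLB4 and the gene of the cyclin-dependent kinase itself, CDC28. Of 11 tested histone genes 9 fell and 0 rose, led by HTA2 with 33.1 CPM in the lawn, against 353 and 349 CPM in log phase (log2 fold change -3.40 ± 0.38 SE, edgeR adjusted p = 0.000330). Of 29 DNA replication genes 15 fell and 1 rose. The falling set included RNR1, the large subunit of ribonucleotide reductase, with 62.7 CPM in the lawn, against 979.5 and 848 CPM in log phase (log2 fold change -3.87 ± 0.43 SE, edgeR adjusted p = 0.000342), and the riser was RNR3 (1.45), its alternative large subunit. Among them there were 8 falls and 0 rises without log-phase replicate 1, 23 falls without either saturated library and 8 falls with plain library totals.

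Wall and membrane synthesis were lower. Of 40 tested cell-wall genes 27 fell and 3 rose (median -2.75). GAS1, the major glucan-elongating enzyme, had 108 CPM in the lawn, against 2152 and 2223 CPM in log phase (log2 fold change -4.35 ± 0.53 SE, edgeR adjusted p = 0.000491). SCW10, a wall glucanase, had 13.6 CPM in the lawn, against 323 and 423 CPM in log phase (log2 fold change -4.77 ± 0.72 SE, edgeR adjusted p = 0.00111). CCW12, an abundant wall mannoprotein, had 929 CPM in the lawn, against 4491 and 5351 CPM in log phase (log2 fold change -2.40 ± 0.49 SE, edgeR adjusted p = 0.00464). The 3 risers were PIR3 with 603 CPM in the lawn, against 7.73 and 12.1 CPM in log phase (log2 fold change 5.98 ± 0.55 SE, edgeR adjusted p = 0.000153), GSC2, an alternative glucan synthase, with 2726 CPM in the lawn, against 178 and 431 CPM in log phase (log2 fold change 3.17 ± 0.61 SE, edgeR adjusted p = 0.00344), and DAN4 (2.96). FKS1, the glucan synthase of growing cells, was among those that fell, by 2.73 on the log2 scale. Of 27 tested genes of sterol and fatty acid synthesis 17 fell and 0 rose (median -1.73), among them both subunits of fatty acid synthase, FAS1 with 822 CPM in the lawn, against 8444 and 6884 CPM in log phase and FAS2 with 722 CPM in the lawn, against 7253 and 6322 CPM in log phase.

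Genes that gather nitrogen rose, though the medium was SC. Of 32 tested genes for poor nitrogen sources 16 rose and 1 fell, CAR1, arginase. That fall was lost without log-phase replicate 1 or 2, and without saturated replicate 1 or 2 there were 2 falls. GDH3, a glutamate dehydrogenase of non-fermenting cells, had 1965 CPM in the lawn, against 9.63 and 14.8 CPM in log phase (log2 fold change 7.38 ± 0.61 SE, edgeR adjusted p = 9.28e-05). PUT4, the proline permease, had 265 CPM in the lawn, against 6.63 and 7.13 CPM in log phase (log2 fold change 5.28 ± 0.70 SE, edgeR adjusted p = 0.000632). MEP2, the high-affinity ammonium permease, had 304 CPM in the lawn, against 21.0 and 27.4 CPM in log phase (log2 fold change 3.67 ± 0.51 SE, edgeR adjusted p = 0.000791). GAP1, the general amino acid permease, had 118 CPM in the lawn, against 67.1 and 89.4 CPM in log phase and did not pass (edgeR adjusted p = 0.332). Of 58 tested amino acid synthesis genes 16 rose and 3 fell, beside 20.7% and 20.9% over all genes. Only 5 rose without log-phase replicate 2, and 9 fell without either saturated library. Plain library totals gave 25 rises, as did the fit of the groups compared alone.

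Autophagy, the delivery of cell contents to the vacuole, had 21 of 31 tested genes rising and 1 falling. ATG8, whose protein coats the growing membrane, had 116 CPM in the lawn, against 10.6 and 8.77 CPM in log phase (log2 fold change 3.55 ± 0.33 SE, edgeR adjusted p = 0.000166). ATG1, the kinase that starts the process, had 783 CPM in the lawn, against 58.2 and 51.0 CPM in log phase (log2 fold change 3.84 ± 0.44 SE, edgeR adjusted p = 0.000374). ATG39, a receptor for nuclear membrane, had 333 CPM in the lawn, against 5.68 and 5.48 CPM in log phase (log2 fold change 5.89 ± 0.34 SE, edgeR adjusted p = 4.29e-05). The lawn was above both log-phase libraries in each, and these genes were named with their values known. The gene that fell, APE3, encodes a vacuolar aminopeptidase. It did not pass without log-phase replicate 1 or 2, and without saturated replicate 1 or 2 there were 2 falls.

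A list of 19 tested adhesins, aquaporins and ammonium exporters studied in colonies and biofilms had 8 rises and 1 fall. The share of rises among all genes is the 20.7% given above. ATO2, an exporter linked to ammonia signals between colonies, had 216 CPM in the lawn, against 2.68 and 2.74 CPM in log phase (log2 fold change 6.31 ± 0.45 SE, edgeR adjusted p = 5.16e-05). ADY2, an acetate transporter of the same family, had 110.0 CPM in the lawn, against 1.42 and 6.03 CPM in log phase (log2 fold change 5.25 ± 1.10 SE, edgeR adjusted p = 0.00536), and it did not pass in DESeq2. ATO3, of the same family, had 32.5 CPM in the lawn, against 113 and 130.5 CPM in log phase and did not pass (edgeR adjusted p = 0.0961). FLO11, the adhesin required for mats and invasive growth, had 36.7 CPM in the lawn, against 11.2 and 20.3 CPM in log phase, with a log2 value of 1.29 that did not pass (edgeR adjusted p = 0.230). With log-phase replicate 1 left out, 4 of the list rose and 3 fell. There were 2 falls with log-phase replicate 2 left out, and 3 with either saturated library left out.

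The a-cell genes were lower and stayed detectable. Of 7 tested, 4 fell and 0 rose. BAR1, the protease that degrades α-factor, had 27.2 CPM in the lawn, against 252 and 473 CPM in log phase (log2 fold change -3.73 ± 0.52 SE, edgeR adjusted p = 0.000791), and STE2 had a log2 fold change of -2.58 (edgeR adjusted p = 0.00617). Of 39 tested genes of meiosis and spore formation 9 rose and 0 fell, a share of rises near the 20.7% over all genes, and 14 rose with plain library totals. REC8, the meiotic cohesin, had 24.8 CPM in the lawn, against 1.58 and 2.74 CPM in log phase (log2 fold change 3.67 ± 0.57 SE, edgeR adjusted p = 0.00123). Levels per length in the lawn differed widely among the risers: SPO24 was at 4284 TPM and GSC2, also counted with the cell wall, at 645 TPM, whereas REC8 was at 16.4 TPM and AMA1, a meiotic activator of protein destruction, at 16.5 TPM.

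Set against the saturated liquid cultures, the lawn differed in fewer genes: of 5827 tested, 294 were higher in the lawn (5.05%) and 416 lower (7.14%), 12.2% in all. This comparison uses the same lawn library as the one above. Plain library totals gave a median over all genes of 0.69 in place of -0.05, with 1387 higher and 216 lower, a share of 86.5% higher among the calls, against 41.4%. A fit of these groups alone gave 190 and 228, and fits without saturated replicate 1 or 2 gave 477 and 722 in the absence of replicate 1 and 698 and 938 in the absence of replicate 2. The ribosomal proteins, which were far below log phase, had 0 higher and 1 lower of 137, with a median of -0.04. Plain library totals gave 17 higher and 0 lower, with a median of 0.69. Of them 4 were higher without saturated replicate 1 and 9 lower without saturated replicate 2.

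Genes of carbon use were among those higher in the lawn than at saturation. Of the 17 genes of gluconeogenesis and the glyoxylate cycle 12 were higher and 0 lower (median 2.84; 1 lower without saturated replicate 2). FBP1 had 177 CPM in the lawn, against 1.95 and 3.77 CPM in the saturated cultures (log2 fold change 6.22 ± 0.76 SE, edgeR adjusted p = 0.00195), though it did not pass in DESeq2. ICL1 had 2006 CPM in the lawn, against 43.1 and 59.0 CPM in the saturated cultures (log2 fold change 5.32 ± 0.39 SE, edgeR adjusted p = 0.000431). Of 18 tricarboxylic acid cycle genes 13 were higher and 0 lower, and of 41 respiratory chain genes 22 were higher and 1 lower (12 higher in the fit of these groups alone, and 2 lower without saturated replicate 1). PDH1, a protein of propionate metabolism in mitochondria, had 622 CPM in the lawn, against 2.23 and 16.3 CPM in the saturated cultures (log2 fold change 6.67 ± 0.77 SE, edgeR adjusted p = 0.00143). SIP18 had 1911 CPM in the lawn, against 8.90 and 28.9 CPM in the saturated cultures (log2 fold change 6.88 ± 0.59 SE, edgeR adjusted p = 0.000453). SPG4, of the same stationary-phase list as SIP18, was higher by 6.41 on the log2 scale, and 9 of the 42 genes of that list were higher and 7 lower. Of that list 17 were higher with plain library totals, 18 higher with saturated replicate 2 left out, and 11 lower with saturated replicate 1 left out.

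Genes of glucose use were among those lower in the lawn than at saturation, beside genes of other roles. PDC5, the minor pyruvate decarboxylase of fermentation, had 114 CPM in the lawn, against 49049 and 30280.0 CPM in the saturated cultures (log2 fold change -8.44 ± 0.88 SE, edgeR adjusted p = 0.000980), while in log phase it was at 36.6 and 45.0 CPM. HXT1 had 10.6 CPM in the lawn, against 2861 and 2593 CPM in the saturated cultures (log2 fold change -8.00 ± 0.61 SE, edgeR adjusted p = 0.000431), and HXT3 had 53.8 CPM in the lawn, against 10094 and 14772 CPM in the saturated cultures (log2 fold change -7.85 ± 0.73 SE, edgeR adjusted p = 0.000695). These transporters were thus high at saturation and low in the lawn, with log phase between them. THI4, of thiamine synthesis, had 18.3 CPM in the lawn, against 3432 and 2413 CPM in the saturated cultures (log2 fold change -7.32 ± 0.69 SE, edgeR adjusted p = 0.000695). Among 20 tested thiamine genes 4 were lower and 1 higher, beside 7.14% and 5.05% over all genes. Plain library totals gave 2 lower and 2 higher. SPI1, a wall protein of stationary phase, had 154 CPM in the lawn, against 5472 and 5679.6 CPM in the saturated cultures (log2 fold change -5.18 ± 0.72 SE, edgeR adjusted p = 0.00314), and was higher in the lawn than in log phase. Of 17 glycolytic genes 11 were lower and 0 higher (5 lower in the fit of these groups alone). Of 29 chaperones 10 were lower and 1 higher, with 6 lower in the fit of these groups alone, 17 in DESeq2, 19 and 16 lower without saturated replicate 1 and 2, and 2 higher without replicate 2.

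**Figure D3:**
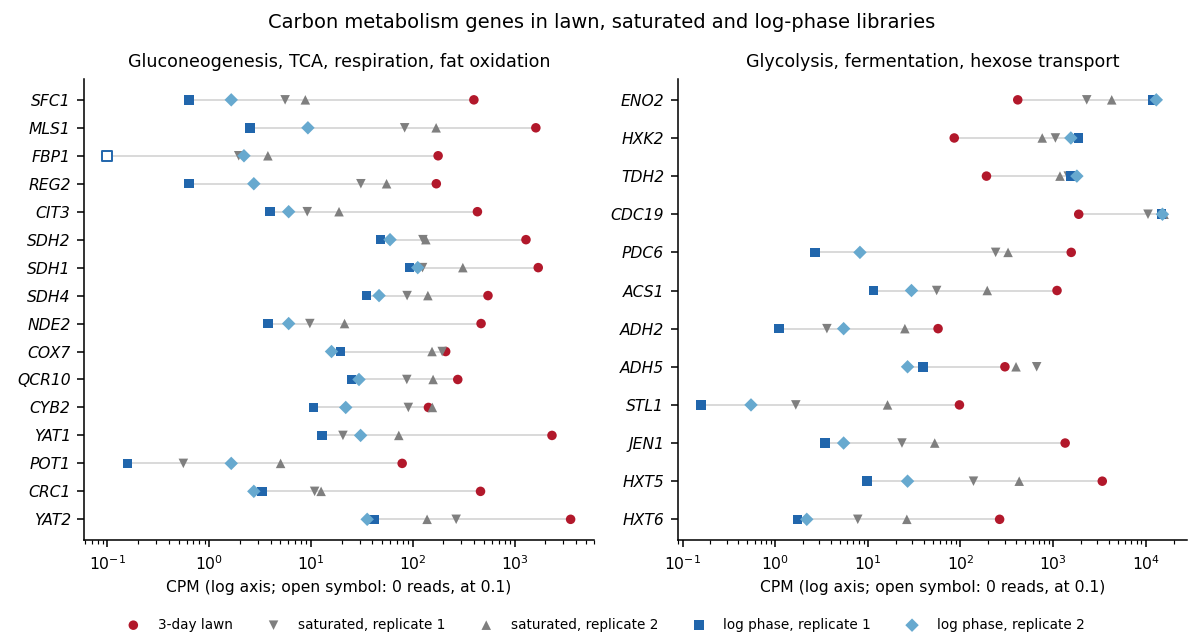
CPM on a log axis of the genes named from the gluconeogenesis, tricarboxylic acid cycle, respiratory and fatty acid oxidation lists (left) and from the glycolysis, fermentation and hexose transport lists (right), with red circles for the lawn, grey triangles for both saturated libraries and blue squares and diamonds for both log-phase libraries; an open symbol marks 0 reads, drawn at 0.1. On the left the lawn is the highest library for nearly every gene, CYB2 being an exception at 142 CPM against 156 CPM in saturated replicate 2. On the right ENO2, HXK2, TDH2 and CDC19 are lowest in the lawn. The genes shown were named for the largest passing changes from log phase in their lists, so their distance from log phase was part of that choice.

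Turning to introns, 300 are listed and 270 had at least 10 reads in any 1 of the 7 libraries and were tested. An intron's reads were set against those of its host gene, whose counts leave the intron out: for 241 of 273 hosts with 1 intron, the length behind the deposited TPM equalled the gene's span less the intron within 1 base. Relative to the host, 186 introns rose in the lawn (68.9%) and 2 fell (0.741%), 69.6% in all, in edgeR's quasi-likelihood test with Benjamini-Hochberg adjustment. By intron level alone, scaled as for genes, 68 rose (25.2%) and 8 fell (2.96%), 28.1% in all. The level counts moved with single libraries: 43 rose without log-phase replicate 1, 2 and 3 fell without log-phase replicates 1 and 2, and 47 and 46 fell without saturated replicates 1 and 2.

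Some introns rose against a host that fell, and others rose in level themselves. Of the 186 introns that rose relative to their hosts, 116 had a host that fell and a level that did not pass. 37 had a level that rose and a host that did not pass, 12 had a level and a host that both rose, 8 had a level that rose and a host that fell, 7 had both falling, and 6 had neither passing. The introns of ribosomal protein genes, whose removal feeds the largest stream of splicing in growing yeast, made up most of the group with a falling host: of 104 tested, 102 rose relative to the host, all 104 hosts fell, 5 introns rose in level and 7 fell. Their median log2 change was 2.61 relative to the host, -0.46 in level and -2.93 for the host itself. Without log-phase replicate 1 or 2, 1 rose in level in each case and 1 and 2 fell, and without either saturated library 43 fell.

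The other 166 introns are described apart: 84 rose relative to the host and 2 fell, 63 rose in level and 1 fell, and of their hosts 31 rose and 37 fell, with 1 not tested. Their median log2 change was 2.03 relative to the host, 1.85 in level and -0.20 for the host. Without log-phase replicate 1 the level of 42 rose, and without saturated replicates 1 and 2 there were 4 and 3 falls in level. Thus at the median the hosts of ribosomal protein introns were the lower term in the lawn, and for other genes the introns were the higher one. No test between the classes was made.

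**Figure D4:**
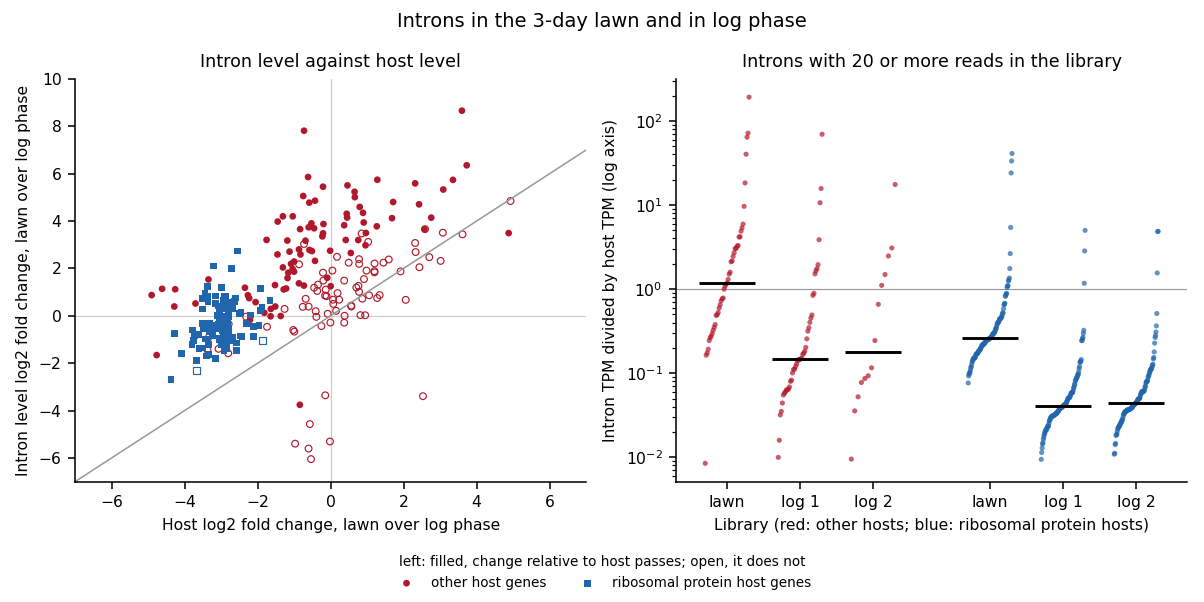
Left: log2 fold change, lawn over log phase, of each tested intron's level (vertical) against that of its host gene (horizontal), with red circles for other hosts and blue squares for ribosomal protein hosts, filled where the change relative to the host passed and open where it did not; the grey diagonal marks equal change. Right: intron TPM divided by host TPM, on a log axis, for introns with 20 or more reads in the library, with black bars for medians. On the left the blue squares lie left of 0 and around 0 in height, and the red circles lie mostly above 0; on the right the lawn's median is above both log-phase medians in both classes.

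Length differed between the classes: 76 of the 104 ribosomal protein introns were 365 bases or longer and none was shorter than 147. Among introns of other genes, the 90 of 52 to 105 bases had a median level change of 2.22 on the log2 scale, with 37 rising; the 62 of 105 to 362 bases had 1.19, with 22 rising and 1 falling; and the 14 of 366 bases or more had 0.87, with 4 rising. The shortest class also had the fewest reads, at a median of 6 in the lawn, against 15 and 75 in the others, so that its values carry the most counting error. These are descriptions, and no difference between length classes was tested.

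Density tells how much intron there is for each copy of host. Over the 270 introns, the median of intron TPM divided by host TPM was 0.460 in the lawn, against 0.0879 and 0.0788 in log phase. Among introns with 20 or more reads in a library, 37 of 144 were denser than their host in the lawn, against 11 of 148 and 8 of 116 in log phase. The densest in the lawn lay in hosts that also hold a small nucleolar RNA gene, whose reads may be part of the intron's count. IMD4 was at 191 in the lawn, against 3.86 and 3.08 in log phase. TEF4 was at 71.4 in the lawn, against 1.52 and 1.11 in log phase, and NOG2 at 63.97 in the lawn, against 15.7 and 17.5 in log phase. In these the intron level did not pass (log2 fold change 0.87, 1.14 and 0.13) while the hosts fell by 4.90, 4.62 and 1.82 on the log2 scale. The high ratios thus went with a loss of host RNA.

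Introns with no such gene in their host also became dense. USV1, which encodes a zinc-finger regulator of growth on non-fermentable carbon (chromosome XVI, 115312-116487), has a 75-base intron with 189 reads in the lawn and 1 read in each log-phase library, a ratio of 456 after scaling (95% exact interval 124 to 3792). It was chosen here after its values were seen, as the intron with the largest fitted rise in level. Its host rose too, by 3.60 on the log2 scale, and the intron was 9.65 times as dense as the host in the lawn, against 0.198 and 0.461 in log phase. GLC7, encoding the catalytic subunit of protein phosphatase 1 (chromosome V, 432495-433958), has a 525-base intron with 695 reads in the lawn, against 56 and 17 in log phase. Its level rose by 5.50 ± 0.42 (SE) on the log2 scale (edgeR adjusted p = 3.02e-05) while the host's change of 0.46 did not pass. MPT5, an RNA-binding repressor of the Puf family, has a 640-base intron with 347 reads in the lawn, against 77 and 14 in log phase, a level rise of 4.31 with a host change of 0.44; it too was chosen after its values were seen. In GLC7 and MPT5 the intron gained while the host did not pass.

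Of the introns with the largest rises relative to the host, SAC6, the gene of the actin-bundling protein fimbrin, has a 111-base intron with 141 reads in the lawn, against 7 and 4 reads in log phase (log2 change relative to the host 6.49 ± 0.48 SE, edgeR adjusted p = 5.60e-34). Its density was 4.88 in the lawn, against 0.0432 and 0.0817 in log phase, so that the intron outnumbered its host per length in the lawn alone of the 3 libraries. The host's change of -0.62 did not pass. ECM33, a wall protein gene with a 330-base intron, had 117 intron reads in the lawn, against 178 and 66 in log phase, and rose by 5.38 ± 0.42 (SE) relative to the host (edgeR adjusted p = 6.26e-32). Its intron level did not pass (log2 fold change 1.12) and its host fell by 4.26 on the log2 scale. POP8, of a ribonuclease that processes RNA precursors, had 36 intron reads in the lawn, against 4 and 2 in log phase, and the ribosomal protein gene RPS23A had 151 intron reads in the lawn, against 83 and 25 in log phase. Both rose by 5.31 relative to the host, and both rose in level, by 4.77 for POP8 and 2.74 for RPS23A, whose host fell by 2.54.

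In 3 hosts of the respiratory chain, QCR10, QCR9 and COX4, both rose and the intron rose further, while COX5B passed in neither. QCR10 had 126 intron reads in the lawn, against 8 and 3 in log phase, with log2 changes of 5.74 in intron level and 3.35 in the host. QCR9 had 132 intron reads in the lawn, against 26 and 9 in log phase, with changes of 4.14 and 2.76. COX4 had 105 intron reads in the lawn, against 33 and 8 in log phase, with changes of 3.65 and 2.57. Relative to the host they rose by 2.35, 1.36 and 1.08, beside a median of 2.35 over the 270 introns. ACT1, the actin gene, had 43 intron reads in the lawn, against 191 and 49 in log phase, a change of -0.17 in level and of -2.21 in the host.

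Introns of 1 gene did not always move alike. EFM5, a lysine methyltransferase gene with a pair of introns, had 56 reads of intron 2 in the lawn, against 1 and 0 in log phase, a ratio to the host of 454 (95% exact interval 78.2 to 18248), and 2 reads of intron 1 in the lawn, against 1 and 0 in log phase. VMA9, of the vacuolar proton pump, had 36 reads of intron 1 in the lawn, against 6 and 3 in log phase, and 7 of intron 2 in the lawn, against 6 and 2 in log phase, with changes relative to the host of 5.52 and 3.35. YOS1, of vesicle transport, had 37 reads of intron 2 in the lawn, against 4 and 0 in log phase, and 12 of intron 1 in the lawn, against 4 and 1 in log phase. The introns of each pair share a host. No test between introns of a pair was made.

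The 2 introns that fell relative to their hosts each rested on some low counts. SNR17B, a gene of the U3 small nucleolar RNA, had 1 intron read in the lawn, against 51 and 16 in log phase, a ratio to the host of 0.120 (95% exact interval 0.00299 to 0.692); it did not pass without log-phase replicate 1 or 2. MRK1, a kinase gene of the glycogen synthase kinase family, had 127 intron reads in the lawn, against 66 and 1 in log phase, while its host had 215 reads in the lawn, against 32 and 5 in log phase. Its log2 change relative to the host was -1.49, and 1.51 without log-phase replicate 1, so that its direction rests on that library.

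Against the saturated cultures the introns hardly differed relative to their hosts: of 270 tested, 2 were higher in the lawn (0.741%) and 3 lower (1.11%), 1.85% in all, and 31 had an unadjusted p under 0.05. GLC7 was higher by 1.35 on the log2 scale, with a density of 2.11 in the lawn, against 0.723 and 0.979 at saturation. UBC4, a ubiquitin-conjugating enzyme, was higher by 1.46, with a density of 3.23 in the lawn, against 1.10 and 1.28 at saturation. RPL7A intron 2, ASC1 and ECM33 were lower by 1.83, 1.70 and 1.44. All 5 were lost with limma or without a single library save RPL7A intron 2, which was lost with limma alone. Without saturated replicate 1, 0 were higher and 1 lower. Without saturated replicate 2, 4 were higher and 3 lower, and without either log-phase library 1 was lower.

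Of the genes that splice and destroy introns, few spliceosome genes passed. Of 71 tested 3 rose and 5 fell (median 0.07), against 20.7% and 20.9% of all genes. Plain library totals gave 21 rises and 2 falls, and the fit of the groups compared alone 16 rises and 10 falls. Among the falls was PRP43, the helicase that takes apart the spliceosome, with 25.4 CPM in the lawn, against 258 and 216 CPM in log phase (log2 fold change -3.22 ± 0.38 SE, edgeR adjusted p = 0.000411). PRP43 also serves in ribosome assembly, as does SNU13, the other large fall. Of 39 tested genes of intron release and RNA decay 1 rose and 8 fell (median -0.66), a share of falls near the 20.9% over all genes, with 15 falls in the fit of the groups compared alone and 3 with plain library totals. DBR1, the enzyme that opens lariats, had 23.1 CPM in the lawn, against 30.6 and 30.2 CPM in log phase and did not pass (edgeR adjusted p = 0.414), and XRN1 and RAT1, which degrade RNA from its start, had log2 values of -0.69 and -0.44 and did not pass. These counts moved with single libraries: the spliceosome list had 1 and 0 rises without log-phase replicates 1 and 2, 8 and 7 without saturated replicates 1 and 2, and 15 falls without either saturated library, and 3 falls without log-phase replicate 1. The decay list had 2 and 5 falls without log-phase replicates 1 and 2, 22 and 21 without saturated replicates 1 and 2, and 2 rises without log-phase replicate 1 or either saturated library.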

How the data were processed

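Total RNA of the lawn and of liquid cultures was depleted of ribosomal RNA, fragmented and sequenced as short fragments, per the labels' protocols. The submitters' processing notes name cutadapt 1.8, STAR 2.4 and the yeast genome build R64 (sacCer3), with no role or order for the tools. How reads were assigned to genes and introns, from which annotation and whether by strand is not given in the sources used here. The authors deposited a whole-number count of reads and a TPM value for each of 6665 genes and 300 introns in every library, per the file headers. TPM carries no depth and was used only to compare genes or introns per length.

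The counts were fitted with edgeR 4.0.16 (R 4.3.3; trimmed-mean scaling, low-count filter, quasi-likelihood test, Benjamini-Hochberg adjustment over all tested genes or introns, threshold 0.05). All 7 libraries entered the fit, so the log-phase and saturated pairs gave 2 residual degrees of freedom for the spread. The gene fit added a prior of 6.94 degrees of freedom pooled over genes. In the intron fit relative to the host the prior was infinite, so the spread was pooled over introns. The very small adjusted p-values of introns rest on that pooling, and the lawn added no replicate error to them. The low-count filter can pass a gene through the lawn alone. Introns with at least 10 reads were tested in level and, in a model with an interaction of intron or host and group, relative to the host. The scripts were checked on simulated data. Replicate pairs differed by far more than counting error (chi-square per degree of freedom 14.5 for log phase and 31.7 for saturation). Neither pair was thus the same reads listed again, but whether the libraries came from separate cultures cannot be told from this. Exact 95% intervals and the floor of 3 reads cover counting error only.

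Symbols were matched for 5991 genes. The members and gene lists were chosen with earlier results of these data known. Against log phase, the text names the 12 genes that rose most and the 12 that fell most among those that passed, had a standard symbol and averaged 10 CPM or more, with the lawn outside both log-phase values. Against saturation it names 8 each way by the same rule. The 4 members that changed most in a list, the 15 genes of highest TPM in lawn and log phase, the cell markers, the 10 largest intron rises, every intron fall, and the 8 densest introns with 20 or more lawn reads could also be named. Members outside this rule were named for their known roles and count as chosen after their values were seen. The alternatives were DESeq2 1.42.0 size factors and test, plain library totals, no low-count filter, only the groups compared, a minimum of 50 intron reads, introns without small nucleolar RNA hosts, limma 3.58.1 (log2 of intron over host, pseudocount 0.5), and each library left out in turn.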

Additional observations from a re-analysis of the deposited data

How the results depend on the processing

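No paired analysis was possible because the lawn has 1 library and shares fewer than 2 replicate numbers with any other group. With 1 library left out at a time, the counts against log phase spanned 731 to 1434 rises and 822 to 1879 falls for genes, 160 to 189 rises and 0 to 2 falls for introns relative to the host, and 43 to 79 rises and 2 to 47 falls for intron level. Against saturation they spanned 283 to 698 higher and 394 to 938 lower genes, and 0 to 4 higher and 1 to 3 lower introns relative to the host. Plain library totals gave 1387 higher and 216 lower genes against saturation, and 103 rises and 4 falls in intron level. A fit of only the groups compared gave 190 higher and 228 lower genes against saturation. Limma gave 4 intron falls relative to the host against log phase and 0 higher introns against saturation. Without introns of hosts that hold small nucleolar RNA genes 1 intron was lower than at saturation. A minimum of 50 intron reads gave 40 rises in level, from fewer introns tested. For MRK1 the intron's change relative to the host was -1.80 without log-phase replicate 2 and reversed to 1.51 without log-phase replicate 1. Of the values of named genes under these alternatives, 1683 kept their side of the threshold, 39 fell below it and 34 passed it. Of the values of named introns, 275 kept their side, 19 fell below it, 14 passed it and 1 reversed. Kept values that passed held their direction, whereas values that passed in neither fit could change sign and still count as kept. The causes were not tested, save that fewer samples or introns entered some fits. The lawn has no replicate, and at its depth 1 CPM equals 1.69 reads, so low genes carry the most error.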

Other observations

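Genes of micronutrient supply moved in part. Of 25 tested genes of iron uptake and use, 7 rose in the lawn and 1 fell, beside 20.7% and 20.9% over all genes. Without log-phase replicate 1, 4 rose and 0 fell, and without either saturated library 12 rose and 3 fell. With plain library totals 16 rose and 0 fell. ISU1, a scaffold on which iron-sulphur clusters are built, had 624 CPM in the lawn, against 78.9 and 80.1 CPM in log phase (log2 fold change 2.97 ± 0.39 SE, edgeR adjusted p = 0.000632). Of 20 tested genes of thiamine, 8 rose and 1 fell, with 4 rises without log-phase replicate 1, 13 rises and 2 falls without either saturated library, and 13 rises with plain library totals. THI73, a membrane carrier induced by low thiamine, had 137 CPM in the lawn, against 3.00 and 3.29 CPM in log phase (log2 fold change 5.45 ± 0.85 SE, edgeR adjusted p = 0.00128). Of 17 tested genes of phosphate, 2 rose and 2 fell, both shares below the 20.7% and 20.9% over all genes. PHO84, the high-affinity phosphate transporter, had 17.1 CPM in the lawn, against 60.8 and 81.7 CPM in log phase (log2 fold change -2.04 ± 0.41 SE, edgeR adjusted p = 0.00423), whereas PHO89, which takes up phosphate with sodium, had 28.4 CPM in the lawn, against 4.89 and 9.32 CPM in log phase (log2 fold change 2.10 ± 0.56 SE, edgeR adjusted p = 0.0158). PHO89 did not pass without log-phase replicate 1, when 1 of the list rose, and without either saturated library 3 rose and 4 fell. Plain library totals gave 5 rises.

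Of 34 tested proteasome genes 8 fell and 1 rose, a share of falls near the 20.9% over all genes. The riser was RPN4, the regulator that activates proteasome genes, with 361 CPM in the lawn, against 139 and 93.8 CPM in log phase (log2 fold change 1.63 ± 0.36 SE, edgeR adjusted p = 0.00688), and it did not pass without log-phase replicate 2. The falls numbered 0 and 4 without log-phase replicates 1 and 2, 17 without either saturated library and 0 with plain library totals. The most abundant RNAs of the lawn per length were SNR17A, which encodes the U3 small nucleolar RNA, at 60871 TPM in the lawn, against 17813 and 22629 TPM in log phase, followed by SIP18 at 10710.0 TPM and HSP26 at 7660 TPM in the lawn. U3 guides the first cuts of ribosomal RNA, and its gene did not pass (log2 fold change 1.05 ± 0.57 SE, edgeR adjusted p = 0.164).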
